A study of Mus musculus with 24 samples.

Results

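The comparison described here set DNA methylation of mouse liver against that of mouse heart at every 100 bp tile of the genome that was measured in both tissues. Members were the tiles with the same chromosome, start and end in the liver and heart tables, which came to 773114 tiles of the 1005908 tiles present in any of the 3 tissues of the series, all on autosomes. The shared share was 94.3% of all 819713 tiles measured in liver and 83.1% of all 930358 measured in heart. Methylation was measured by enhanced reduced representation bisulphite sequencing (RRBS), in which genomic DNA is cut with restriction enzymes, unmethylated cytosines are converted with bisulphite and the CpGs near the cut sites are read. All animals were inbred C57Bl/6J mice aged 24 weeks, and the labels name no treatment. The liver group held 12 libraries, from 6 males and 6 females, made from a section of the extreme caudal left lobe. The heart group held 6 libraries, from 3 males and 3 females, made from a section of the apex. All 6 heart mouse numbers also occurred among the 12 liver mouse numbers, although the labels give 2 of them opposite genders in the tissues, so that the gender counts and the identity of these mice are uncertain. Moreover, the columns of levels name no mouse or gender, so each tissue was treated as 1 group and no pairing was made. The tables hold a level per tile and library and no read counts, so the depth behind a level is unknown.

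Methylation at a CpG is the addition of a methyl group to the cytosine, carried on both strands and copied at each cell division by a maintenance methyltransferase. Most CpGs of a mammalian somatic genome are methylated, while CpG-dense promoters are mostly not, and the enhancers and promoters that a cell type uses are often low in methylation in that cell type. Liver DNA comes mainly from hepatocytes, which make plasma proteins, urea, bile acids and glucose, with DNA from sinusoidal endothelium, Kupffer cells and bile duct cells. Heart DNA comes from cardiomyocytes together with endothelial cells, fibroblasts and mural cells. The libraries were made from whole tissue sections, so a different mix of cell types and a different methylation level within a cell type cannot be told apart in any value below.

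The sequences of 14 tiles show what a member is. The letters are those of the GRCm38 (mm10) reference, plus strand, with each CpG in capitals. The first 7 tiles were lower in liver than in heart, and are shown because they lie in the longest runs of such tiles, hold the largest differences, or belong to genes of hepatocyte function.
Trf, chr9:103226801-103226900: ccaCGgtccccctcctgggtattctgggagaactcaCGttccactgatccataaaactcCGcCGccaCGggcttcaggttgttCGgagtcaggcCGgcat
Fga, chr3:83031201-83031300: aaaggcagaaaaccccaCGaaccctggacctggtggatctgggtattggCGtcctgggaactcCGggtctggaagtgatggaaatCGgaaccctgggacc
Klhdc7a, chr4:139965501-139965600: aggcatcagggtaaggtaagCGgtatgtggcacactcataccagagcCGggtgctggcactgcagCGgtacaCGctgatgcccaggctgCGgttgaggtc
Dnmbp, chr19:43890301-43890400: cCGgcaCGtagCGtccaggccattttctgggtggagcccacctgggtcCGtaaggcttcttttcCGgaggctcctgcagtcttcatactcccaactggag
Pck1, chr2:173155001-173155100: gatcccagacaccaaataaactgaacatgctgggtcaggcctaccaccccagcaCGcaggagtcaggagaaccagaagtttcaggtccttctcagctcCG
Lifr, chr15:7136301-7136400: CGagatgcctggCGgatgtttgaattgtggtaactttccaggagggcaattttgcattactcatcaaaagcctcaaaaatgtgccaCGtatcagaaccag
Osgin1, chr8:119430101-119430200: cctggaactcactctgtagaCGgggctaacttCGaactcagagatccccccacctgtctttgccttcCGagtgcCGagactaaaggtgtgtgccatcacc

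The next 7 tiles were lower in heart than in liver, and are shown for the same reasons, with genes of cardiac muscle as the last 3.
Fam83h, chr15:76003901-76004000: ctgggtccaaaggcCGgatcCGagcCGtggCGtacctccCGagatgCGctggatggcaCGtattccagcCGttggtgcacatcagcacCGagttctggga
Fignl2, chr15:101053701-101053800: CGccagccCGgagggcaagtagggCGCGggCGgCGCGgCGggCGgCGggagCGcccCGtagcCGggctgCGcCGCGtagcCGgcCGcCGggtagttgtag
Zmiz1, chr14:25607001-25607100: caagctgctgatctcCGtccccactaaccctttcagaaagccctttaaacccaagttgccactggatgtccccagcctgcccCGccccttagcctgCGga
Map4k4, chr1:39961901-39962000: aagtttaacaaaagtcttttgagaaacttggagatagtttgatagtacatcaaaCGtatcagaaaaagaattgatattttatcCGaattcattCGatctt
Mb, chr15:77029301-77029400: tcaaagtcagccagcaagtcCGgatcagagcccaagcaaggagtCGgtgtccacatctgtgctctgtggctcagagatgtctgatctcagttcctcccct
Ttn, chr2:76867501-76867600: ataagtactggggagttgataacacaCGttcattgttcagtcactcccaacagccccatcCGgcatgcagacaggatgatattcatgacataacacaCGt
Cacna1c, chr6:119177601-119177700: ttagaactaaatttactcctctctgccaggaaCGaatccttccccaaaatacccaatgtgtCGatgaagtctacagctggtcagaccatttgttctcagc

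The tiles ranged from 2 CpGs at Pck1, Mb and Cacna1c to 19 at Fignl2. The recognition site of MspI, the CCGG that RRBS commonly cuts, was inside 8 of the 14 tiles shown.

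Heart DNA was less methylated than liver DNA over the shared tiles as a whole. The mean level of a library lay between 65.0% and 66.3% in liver and between 59.7% and 60.5% in heart, so that the tissues did not overlap. The means were 65.5% ± 0.33 in liver (SD, n = 12) and 59.97% ± 0.26 in heart (SD, n = 6), a difference of 5.56 percentage points (exact two-sided permutation test over the 18 libraries, p = 0.000108, the smallest that the 18564 assignments can give). The median tile differed by 3.53 points. The mean was higher in liver on each of the 19 autosomes, by 5.28 points on chromosome 8 at the least and by 5.80 points on chromosome 7 at the most. Within a tissue, levels of 2 libraries correlated across tiles at 0.964 to 0.976 in liver and 0.963 to 0.977 in heart. Between a liver and a heart library the correlation was 0.869 to 0.891. These correlations run across tiles, which are not independent replicates.

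A tile was called a differentially methylated tile (DMT) where the adjusted p was 0.01 or less (limma's moderated test on the level, with Benjamini-Hochberg adjustment over all 773114 tiles) and the tissue means differed by at least 25 points. This gave 83369 DMTs, 10.8% of the tiles tested. Of these, 61269 were hypermethylated in liver, 7.92% of the tiles, and 22100 were hypermethylated in heart, 2.86% of the tiles. All 12 liver levels lay above all 6 heart levels, or the reverse, at 18.4% of all shared tiles. Among the DMTs this was so for 90.9% of those higher in liver and 93.4% of those higher in heart.

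The balance between the directions turned with the size of the difference. At 10 points or more, 81.6% of the DMTs were higher in liver, and at 25 points 73.5% were. At 50 points or more the larger group was the other one, with 7054 tiles higher in heart and 5425 higher in liver. At 60 points the counts were 3130 and 1215, and at 70 points 416 and 168. These counts moved with the shift in the mean. Once every library was centred to the same mean, the split at 25 points was 40544 higher in liver and 28202 higher in heart, or 59.0% and 41.0%. At 50 points it was then 2438 and 9607. The median tile after centring lay 2.03 points lower in liver than in heart.

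The DMTs of the 2 directions also differed in the levels they joined. Tiles higher in heart had a median level of 26.4% in liver and 76.7% in heart. Tiles higher in liver had a median of 75.03% in liver and 37.8% in heart. A complete change of state was rare in both directions. Of all 773114 tiles, 417 had a mean under 20% in liver and over 80% in heart, and 234 had the reverse. Liver means under 20% made up 23.9% of the tiles higher in heart, and heart means under 20% made up 16.3% of the tiles higher in liver.

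**Figure D1:**
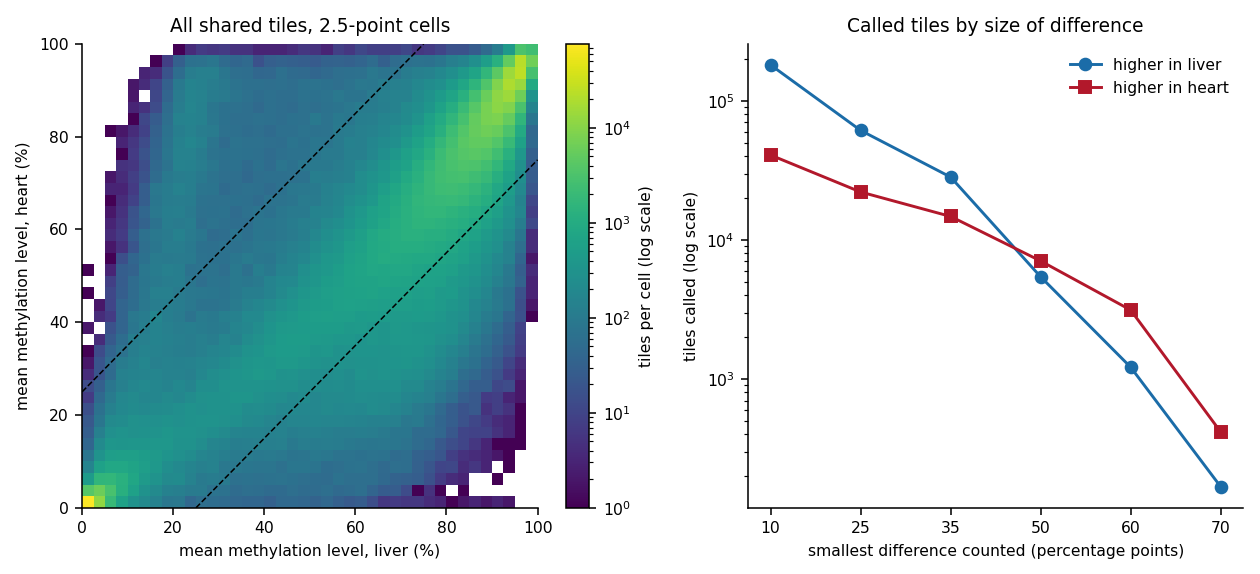
Left, mean level of every shared tile in liver (x axis, percent) and heart (y axis, percent), coloured by the number of tiles in each cell on a log scale, with dashed lines at a difference of 25 points. Right, DMTs by the smallest difference counted (x axis, percentage points; y axis, number of tiles on a log scale): liver hypermethylation led at 25 points (61269 against 22100) and heart hypermethylation at 50 points (7054 against 5425).

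Brain libraries, 6 in number, offered another tissue that took no part in the calls. Of the tiles higher in heart, 21714 were also measured in brain, and the brain mean was nearer to heart than to liver at 91.6% of them, with a median brain level of 79.4%. Of the tiles higher in liver, 60234 were measured in brain, and the brain mean was nearer to liver at 62.8%, with a median of 62.7%. Over all tiles measured in the 3 tissues, brain was nearer to liver at 53.8%. Tiles low in liver were thus mostly high in both other tissues, while tiles low in heart were more evenly placed in brain. At differences of 50 points or more the shares were 96.1% nearer to heart for tiles higher in heart and 54.2% nearer to liver for tiles higher in liver.

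In percentage points, the gap between the tissues was widest where CpGs were sparse. CpG-dense tiles were low in both tissues and had less room for a gap, which also limits the contrast below. Tiles with 1 CpG averaged 72.5% ± 0.50 in liver and 64.9% ± 0.37 in heart, a difference of 7.56 points. This class, and that of 1 or 2 CpGs below, include the few tiles with no reference CpG. Of all shared tiles, 99.9% held one. The difference was 6.30 points for tiles with 2 CpGs and 4.91 points for tiles with 3 to 6. Tiles with 7 or more CpGs averaged 18.2% ± 0.32 in liver and 16.8% ± 0.18 in heart, a difference of 1.34 points (SD over 12 and 6 libraries throughout). The difference between CpG-poor tiles, with 1 or 2 CpGs, and tiles with 7 or more was itself 5.57 points larger in liver than in heart (exact two-sided permutation test, adjusted p = 0.000108 over 6 such contrasts). Of tiles with 1 CpG, 9.47% were DMTs higher in liver and 3.08% DMTs higher in heart, and of those with 7 or more, 1.44% and 0.460%.

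By gene annotation, the smallest gap in percentage points was at promoters. Levels there were low in both tissues, which leaves less room for a gap and limits the contrasts with promoters below. Tiles in the promoter class averaged 14.01% in liver and 12.6% in heart, 1.36 points apart. Coding tiles differed by 4.46 points, intronic tiles by 5.70 and intergenic tiles by 6.58. The intron to promoter contrast was 4.34 points larger in liver than in heart and the intergenic to intron contrast 0.87 points larger (each exact two-sided permutation p = 0.000108, also adjusted over the 6 contrasts). Introns held the highest share of DMTs in both directions, with 10.1% higher in liver and 3.87% higher in heart. Tiles 2000 to 10000 bp from the nearest gene start held the highest share of heart-high DMTs among the distance classes, 4.34%, against 2.01% beyond 50000 bp. Repeat-masked tiles held fewer DMTs than other tiles in both directions, with 2.93% higher in liver and 1.56% higher in heart, against 9.20% and 3.19%.

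DMTs were grouped into runs, where a DMT standing alone also counts as a run. With starts at most 1000 bp apart, the 20631 non-overlapping DMTs higher in heart formed 13230 runs, of which 4966 held 2 or more tiles and 9 held 10 or more. The 55677 higher in liver formed 36111 runs, of which 13005 held 2 or more and 29 held 10 or more. Most runs in both directions were thus single tiles. Runs of 2 or more held 59.9% of these DMTs higher in heart and 58.5% of those higher in liver. How closely all shared tiles lie together was not measured by the same rule. The 5 longest in each direction outside chromosome 18 are described next.

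The longest run low in liver lay in Trf, which encodes transferrin, the iron carrier that hepatocytes secrete into plasma. It spanned chr9:103225101-103227900 and all 13 of its shared tiles were DMTs, with a mean of 26.7% in liver and 80.4% in heart. The Trf tile shown above, in coding exon 3 of 17, ranged from 11.3% through a median of 24.6% to 31.7% in liver and from 91.7% through 93.6% to 94.4% in heart. No liver library came near the heart range, and the means were 70.5 points apart (SE 2.27; limma, adjusted p = 4.24e-14). Brain averaged 76.5% at the same tile. Just upstream of the gene start the tissues met at low levels, as the profile plot shows.

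Fga, the alpha chain of fibrinogen, the clotting protein that the liver makes, held a run of 11 DMTs among 13 shared tiles at chr3:83028801-83033800. The tile shown, in the last coding exon, exon 5, lay between 14.3% and 36.5% in liver with a median of 21.5%, and between 87.5% and 94.9% in heart with a median of 90.4%. The difference was 68.1 points in favour of heart (SE 2.41; limma, adjusted p = 1.27e-13).

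Klhdc7a, a single-exon gene for a kelch-domain protein, held 12 DMTs among 15 tiles at chr4:139965501-139967400, with 26.4% ± 5.47 in liver and 91.7% ± 2.16 in heart at the tile shown (SD, n = 12 and 6). An intergenic run of 12 tiles at chr5:146686801-146688600, whose nearest start is that of Gpr12, 102812 bp away, averaged 23.4% in liver and 65.5% in heart. The run in an intron of Dnmbp, which encodes a scaffold protein that binds dynamin, had the widest mean gap of the 5. Its 11 tiles at chr19:43888401-43890600 averaged 29.6% in liver and 90.3% in heart, and 92.1% in brain.

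The longest run of all was low in heart and lay in the last coding exon of Fam83h, a gene best known for its part in tooth enamel formation. It held 18 tiles, all of them DMTs, at chr15:76001901-76004800, with a mean of 64.0% in liver, 13.5% in heart and 17.3% in brain. At the tile shown, liver ran from 55.6% through a median of 67.2% to 75.4% and heart from 1.6% through 4.85% to 8.2%. The groups were far from overlapping, with a difference of 63.5 points (SE 2.29; limma, adjusted p = 1.62e-13).

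Fignl2, a relative of the microtubule-severing enzyme fidgetin, held 16 DMTs in a CpG-dense single coding exon at chr15:101052801-101054400, with means of 76.7% in liver and 36.8% in heart. Its tile of 19 CpGs lay between 64.4% and 90.0% in liver and between 21.7% and 37.3% in heart. Brain was lower still, at 14.6%. A run of 15 tiles in intron 6 of Zmiz1, a transcriptional co-regulator, at chr14:25606801-25608300 was almost unmethylated in heart, with a mean of 0.94% in heart and 0.91% in brain against 45.6% in liver. At the Zmiz1 tile shown the liver libraries spread from 42.4% to 79.2%, wider than at the tiles shown for the other runs.

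The other 2 runs low in heart kept more methylation in that tissue. In 1110002E22Rik, overlapped by Gm5105, 15 of 19 tiles were DMTs, with 88.9% in liver and 56.6% in heart. In Mfsd12, a lysosomal transporter gene overlapped by 4930404N11Rik, the highest-ranked tile had 79.0% ± 7.81 in liver and 24.8% ± 3.34 in heart (SD, n = 12 and 6). Genes that overlap share these tiles, and methylation cannot be assigned to either.

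**Figure D2:**
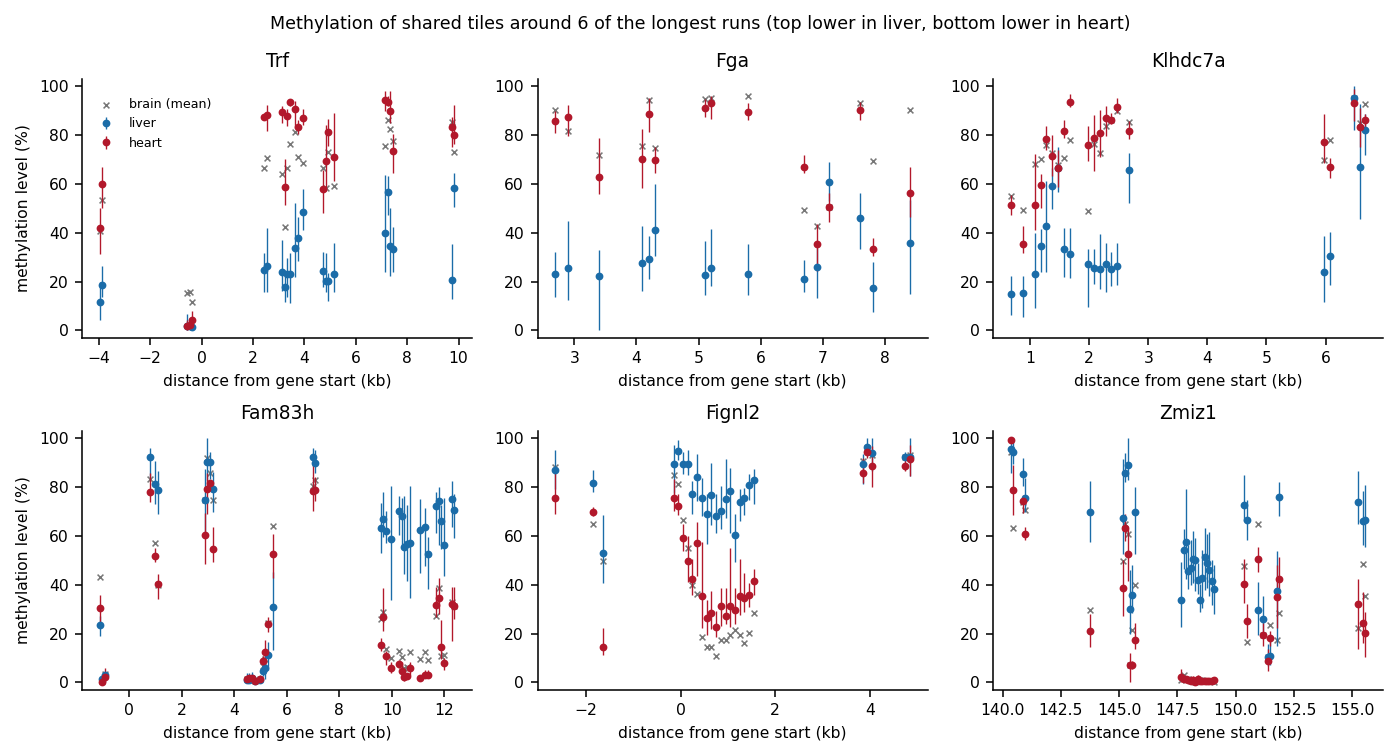
Methylation level (y axis, percent) of shared tiles by distance from the gene start (x axis, kb) at 6 of the longest runs. Points are tissue means for liver (12 libraries) and heart (6), bars the lowest to the highest library, and crosses the brain mean; in the top row heart lies above liver (Trf, Fga, Klhdc7a), and in the bottom row liver lies above heart (Fam83h, Fignl2, Zmiz1).

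Among tiles with 3 or more CpGs outside chromosome 18, the 5 per direction with the largest differences lay in introns in 6 of 10 cases. Tiles with fewer CpGs could differ by as much, such as one with 1 CpG in Rxra, 79.7 points higher in heart. Of the tiles higher in heart with 3 or more CpGs, the largest difference was in the first intron of Lifr, the receptor for leukaemia inhibitory factor. Liver ranged from 1.9% through a median of 10.4% to 20.9% and heart from 76.9% through 88.3% to 100%, which put the means 78.5 points apart (SE 3.18; limma, adjusted p = 7.00e-13). Close behind were an intergenic tile 150786 bp from Gm31583, an intronic tile of Fndc3b, a tile 6996 bp upstream of Osgin1 and an intronic tile of Slc25a26, the mitochondrial carrier of S-adenosylmethionine. Their liver means lay between 17.3% and 19.1% and their heart means between 94.7% and 96.2%.

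By the same limits, the largest differences higher in liver were larger than these, and some stood on a heart level of exactly 0 in every library. Atp2b1, a plasma membrane calcium pump, and A930011G23Rik held intronic tiles listed at 0 in all 6 heart libraries, with 91.4% ± 5.14 and 85.0% ± 13.03 in liver (SD, n = 12). Neither tile was among those measured in brain. A tile at the last exon of Leprotl1 was listed at 0 in 5 heart libraries and in all brain libraries. Map4k4, a stress-activated kinase gene, held another, with a heart range of 5.2% to 14.3% and a liver range of 88.2% to 100%, 85.0 points apart (SE 2.08; limma, adjusted p = 2.30e-15).

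The tissue labels were checked on marker genes, counting tiles in the transcript or up to 5000 bp upstream of it. Of 8 hepatocyte markers, 7 had tiles, and all 7 had more DMTs low in liver than low in heart. Their 134 tiles held 42 DMTs lower in liver, 31.3%, and 5 lower in heart, 3.73%. Of 8 cardiomyocyte markers, all had tiles and 7 had more DMTs low in heart. Their 188 tiles held 83 DMTs lower in heart, 44.1%, and 2 lower in liver, 1.06%. Over all tiles, 7.92% were DMTs lower in heart and 2.86% DMTs lower in liver. The exception was Nkx2-5, a cardiac homeobox factor, whose 19 tiles held no DMT and whose promoter averaged 6.32% in liver and 6.06% in heart.

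Genes for plasma proteins and apolipoproteins had the largest share of DMTs low in liver among the 16 gene lists compared. Of 38 genes, 35 had tiles, and 176 of their 425 tiles, 41.4%, were lower in liver. Another 20, or 4.71%, were lower in heart. The median tile lay 11.1 points lower in liver, while over all shared tiles it lay 3.53 points higher. Trf held 20 such DMTs, Fga 12 and Apoc2, an activator of lipoprotein lipase, 11, with the highest-ranked Apoc2 tile also inside the overlapping Gm44805. Prothrombin, F2, held 10, and the beta and gamma fibrinogen chains Fgb and Fgg held 9 and 8. Albumin itself had 5 tiles, 3 of them lower in liver and none lower in heart. F12, a coagulation factor, ran the other way, with 8 of 20 tiles lower in heart and 1 lower in liver.

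The promoters of this list had the same direction. Of 17 that could be measured, 11 were lower in liver and none lower in heart, against 1.29% and 2.16% of all 17009 promoters. At Apob, the core protein of very low density lipoprotein, the promoter lay between 20.5% and 34.4% in liver and between 77.6% and 84.9% in heart, 55.1 points apart (SE 1.9; limma, adjusted p = 8.48e-14). At Fgb, liver averaged 22.4% ± 3.7 and heart 72.4% ± 3.4 over 6 tiles (SD, n = 12 and 6).

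Genes of the urea cycle and amino acid breakdown came next, with 101 of 419 tiles, 24.1%, lower in liver and 22, 5.25%, lower in heart. All 23 genes held at least 1 DMT low in liver, as did 28.0% of all genes with a tile. Among those with the most DMTs, Ass1, argininosuccinate synthase of the urea cycle, had 18 low in liver and 1 low in heart. Prodh2, which breaks down hydroxyproline, was mixed, with 2 DMTs low in liver and 7 low in heart. Of 16 promoters, 6 were lower in liver, those of Agxt, Bhmt, Hal, Hpd, Mat1a and Prodh2.

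Gluconeogenesis and liver glycolysis genes had 40 of 219 tiles, 18.3%, lower in liver and 11, 5.02%, lower in heart. Pck1, the rate-setting enzyme of gluconeogenesis, accounted for 14 of the 40. Its tile in intron 4 ran from 19.6% through a median of 29.3% to 34.2% in liver and from 92.7% through 94.1% to 97.1% in heart, 66.5 points apart (SE 1.90; limma, adjusted p = 1.06e-14). Promoters of G6pc, Gckr, Pck1, Pklr and Tkfc were lower in liver, 5 of 8 measured. Slc2a2, the liver glucose transporter, held no DMT.

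Bile acid genes were the most mixed of the liver lists. Of 337 tiles, 54, or 16.02%, were lower in liver and 25, or 7.42%, lower in heart, the latter close to the background of 7.92%. Abcc2, an exporter of conjugates into bile, had 7 low in liver and 1 low in heart, and Abcb11, the bile salt export pump, also had 7 and 1. Abcg8, which with Abcg5 exports sterols into bile, had 5 low in liver and 8 low in heart. Its promoter was the single one of 8 called, and in the direction of the heart being low, with 61.1% ± 7.19 in liver and 1.74% ± 1.06 in heart (SD, n = 12 and 6). The lowest liver library was at 48.7% and the highest heart library at 3.67% there.

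Genes for transcription factors of hepatocytes had the same direction. Of 747 tiles, 139, or 18.6%, were lower in liver and 47, or 6.29%, lower in heart, although the median tile of the list lay only 0.76 points lower in liver. Rxra, the shared partner of several nuclear receptors, had 27 DMTs low in liver and 2 low in heart. Ppara, the fatty acid receptor that drives oxidation genes, had 23 and none. Hnf4a, the nuclear receptor at the centre of the hepatocyte programme, had 16 and 4. Promoters lower in liver included those of Hnf4a, Nr0b2 and Nr1i3. The Hnf4a promoter lay between 13.3% and 26.0% in liver and between 68.5% and 77.7% in heart. Creb3l3, which encodes a liver stress factor, went against them, with 73.1% ± 3.1 at its promoter in liver and 26.4% ± 4.5 in heart (SD, n = 12 and 6). Foxa2 held no DMT among 31 tiles.

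Genes of the cardiac sarcomere, the contractile unit of muscle, showed the reverse. Of 1436 tiles, 295, or 20.5%, were lower in heart and 22, or 1.53%, lower in liver, and the median tile was 8.19 points lower in heart, or 2.62 points once the libraries were centred to the same mean. Of the 35 genes, 33 held at least 1 DMT low in heart, as did 47.8% of all genes with a tile. Ttn, the giant elastic protein titin, had 46 such tiles among 257 and 1 in the other direction. Ldb3, a Z-disc protein, had 23 and 2. At the Ttn tile shown, liver ranged from 58.2% through a median of 68.3% to 73.3% and heart from 14.3% through 22.2% to 25.3%, with no overlap. Myl2, the ventricular myosin light chain, had 18 of its 20 tiles low in heart, and Myh6 and Myh7, the cardiac myosin heavy chains, had 10 of 18 and 13 of 17.

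Promoters of sarcomere genes were lower in heart at 9 of the 20 measured and lower in liver at none. The 9 included those of Csrp3, Ldb3, Mybpc3, Myl3, Synpo2l, Trim63, Ttn and Xirp1. Their heart means lay between 19.9% and 57.6%. Of these, Csrp3 differed most, with 80.1% ± 5.1 in liver and 34.4% ± 3.7 in heart (SD, n = 12 and 6).

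Calcium handling genes, channels and natriuretic peptides had 294 of 1743 tiles, 16.9%, lower in heart and 16, 0.918%, lower in liver. Cacna1c, the pore of the cardiac L-type calcium channel, had the most DMTs of any listed gene, with 75 of 306 tiles low in heart and 6 low in liver. Its tile in the first intron ran from 74.0% to 90.5% in liver and from 0.0% to 26.9% in heart, 71.0 points apart (SE 3.42; limma, adjusted p = 6.50e-12). Ryr2, the calcium release channel of the sarcoplasmic reticulum, had 31 and none, and Kcnq1, a potassium channel, 23 and 4. The natriuretic peptide genes themselves were little represented, with no DMT among 6 tiles of Nppa and 1 among 5 of Nppb. Casq2, the calcium store protein, had a promoter at 35.8% ± 5.1 in liver and 1.7% ± 1.2 in heart (SD, n = 12 and 6).

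Of 430 tiles of muscle energy genes, 15.3% were DMTs lower in heart and 5.58% were DMTs lower in liver. Mb, the oxygen store myoglobin, had 10 DMTs low in heart and 2 low in liver. Its intronic tile ran from 75.5% through a median of 84.8% to 95% in liver and from 0.0% through 8.5% to 12.9% in heart, and the means were 77.6 points apart (SE 2.63; limma, adjusted p = 7.44e-14). Pygm, muscle glycogen phosphorylase, had a promoter at 73.7% ± 2.6 in liver and 17.9% ± 3.9 in heart (SD, n = 12 and 6). Cpt1b, the muscle form of the enzyme that admits fatty acids to mitochondria, had 9 DMTs low in heart, and the tile ranked first lies also in the read-through transcript Gm44502. Acsl1, which activates long-chain fatty acids in both tissues, had 14 DMTs low in liver and none low in heart, and Cox8b, a subunit of cytochrome c oxidase, had 4 and none.

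Cardiac transcription factor genes were lower in heart at 196 of 1505 tiles, 13.02%, and lower in liver at 55, 3.65%. Esrrg, a nuclear receptor of oxidative metabolism, had 47 and 4, Tead1, a partner of the Hippo pathway, 34 and 4, and Gata4 22 and 2. The largest difference in Tead1 was nonetheless low in liver, with 18.8% ± 4.05 in liver and 82.9% ± 8.79 in heart (SD, n = 12 and 6). None of the 26 promoters of this list was called in either direction, and the median promoter differed by 0.27 points. Esrrb and Irx3 ran against the list, with 10 and 6 DMTs low in liver and 4 and none low in heart.

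Markers of some of the other cell types that the sections hold also differed, and their part in the results above was not tested. Endothelial genes had the highest share of DMTs low in heart of all lists, 140 of 541 tiles or 25.9%, and 1.29% low in liver. Flt1 and Kdr, receptors for vascular endothelial growth factor, had 35 and 20 low in heart and none low in liver, Erg, an endothelial transcription factor, 25 and 2, and Pecam1, an endothelial adhesion molecule, 22 and 2. Promoters of Pecam1, Tek and Tie1 were lower in heart. Smooth muscle and pericyte genes had 11.6% of 190 tiles low in heart and 2.63% low in liver, with Pdgfrb at 9 and none, and 2 of 6 promoters lower in heart. Bile duct genes had 11.6% low in heart and 5.26% low in liver, over 95 tiles, and their ductal factor Sox9 had 7 of 28 tiles low in heart and none low in liver.

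Blood and macrophage genes had 8.18% low in heart and 2.73% low in liver of 110 tiles, close to the 7.92% and 2.86% of all tiles. Spi1, the myeloid master factor, had 4 low in heart and 0 low in liver. Csf1r of the same list went the other way, with 1 low in heart and 3 low in liver. Of their 4 measured promoters, those of Spi1 and Tyrobp, a signalling adaptor of myeloid cells, were lower in heart, against 2.16% of all promoters. Fibroblast genes had 4.93% low in heart and 3.52% low in liver of 284 tiles. Within that list Fbln1 had 10 DMTs low in heart and Fn1, plasma fibronectin that hepatocytes also secrete, had 7 low in liver. Col3a1, Dcn and Pdgfra held none.

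The shares of the remaining lists were close to those of all tiles. Housekeeping genes had 6.02% of 216 tiles low in heart and 1.39% low in liver, and none of their 12 promoters was called. Imprinted genes, counted over the transcript and up to 5000 bp upstream and not at control regions alone, had 8.13% and 2.93% of 443 tiles. None of their 15 promoters was called. Single tiles in these lists could still differ widely, such as the tile 1216 bp upstream of the ribosomal protein gene Rplp0, with 25.6% ± 6.49 in liver and 91.8% ± 0.71 in heart (SD, n = 12 and 6).

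**Figure D3:**
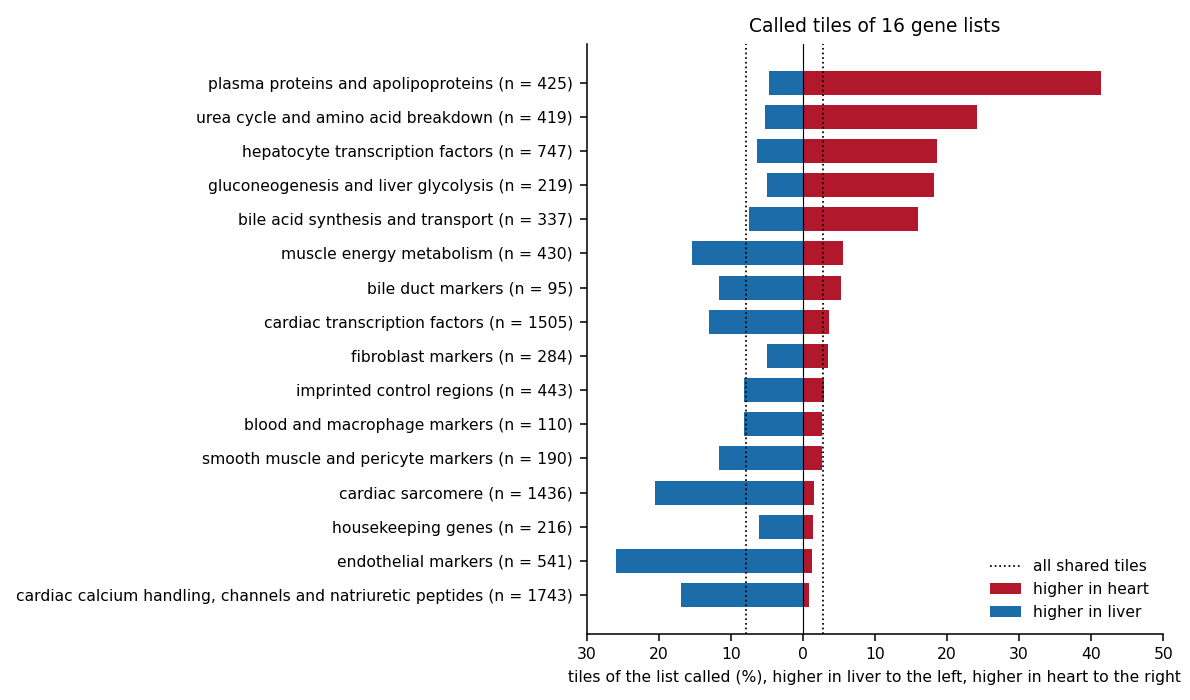
Share of the tiles of each of 16 gene lists (n = tiles) that were DMTs (x axis, percent), higher in liver to the left in blue and higher in heart to the right in red, with dotted lines at the shares of all shared tiles, 7.92% and 2.86%. Plasma protein genes reach 41.4% higher in heart and endothelial genes 25.9% higher in liver. Every list, also the one labelled imprinted control regions, counts tiles over the transcript and up to 5000 bp upstream.

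With every library centred to the same mean, the 5 lists with the highest shares in each direction stayed in the same order. Low in liver were then 44.7% of the plasma protein tiles against 3.65% of all tiles. Low in heart were 19.96% of the endothelial tiles and 12.6% of the sarcomere tiles, against 5.24% of all tiles. Centring took the same 5.56 points from the difference of every tile. Each median therefore fell by that amount, and the turns of sign below follow from it alone. The median sarcomere tile was then 2.62 points lower in heart instead of 8.19. Liver minus heart, the medians of the calcium handling, muscle energy, cardiac transcription factor and endothelial lists turned from 4.48, 3.21, 1.48 and 5.23 points to -1.09, -2.36, -4.09 and -0.33, while that of all tiles turned from 3.53 to -2.03. Medians of the bile acid, gluconeogenesis, fibroblast, bile duct, housekeeping and imprinted lists turned to lower in liver as well.

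Promoters, taken as the mean of the tiles from 1000 bp upstream to 500 bp downstream of the start, were called at 587 of 17009 genes, 3.45%. Of these, 367 were higher in liver and 220 higher in heart. The median promoter was nearly unmethylated in both tissues, at 2.42% in liver and 1.84% in heart. Promoters higher in liver had medians of 68.0% and 31.3%, and those higher in heart had medians of 21.8% in liver and 68.6% in heart. Among those that differed by 50 points or more, 59 were higher in heart and 19 higher in liver. Centring by the library means of all shared tiles gave 231 calls higher in liver and 270 higher in heart. It took the all-tile shift of 5.56 points from promoters that mostly had levels near 0. The median promoter then lay 5.20 points lower in liver. These centred values follow from the size of that shift, and show no direction of the promoters themselves.

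Of promoters with 3 or more tiles, that of Kng1, the precursor of bradykinin in plasma, was lowest in liver relative to heart. It ran from 11.8% through a median of 23.7% to 31.2% in liver and from 87.4% through 89.9% to 93.9% in heart, 66.9 points apart (SE 2.51; limma, adjusted p = 2.68e-13). Leap2, the liver-made antagonist of the ghrelin receptor, had 23.2% ± 5.82 and 85.5% ± 4.76, and A1cf, the cofactor of apolipoprotein B messenger editing, had 25.5% ± 3.13 and 85.2% ± 1.10 over 7 tiles (SD, n = 12 and 6). Sec16b, which acts in export from the endoplasmic reticulum, and the unnamed gene 0610005C13Rik had differences of 62.0 and 59.9 points in the same direction.

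In the other direction the largest differences were at the non-coding gene Gm11716, then Abcg8, E030011O05Rik, Gm20597 and Lima1. Gm11716 had 79.8% ± 3.23 in liver and 13.8% ± 4.26 in heart (SD, n = 12 and 6). Lima1, an actin-binding protein, had 66.8% ± 4.38 and 10.3% ± 2.41. The brain level lay between those of liver and heart at all 5, from 6.24% at Abcg8 to 59.8% at Gm11716.

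**Figure D4:**
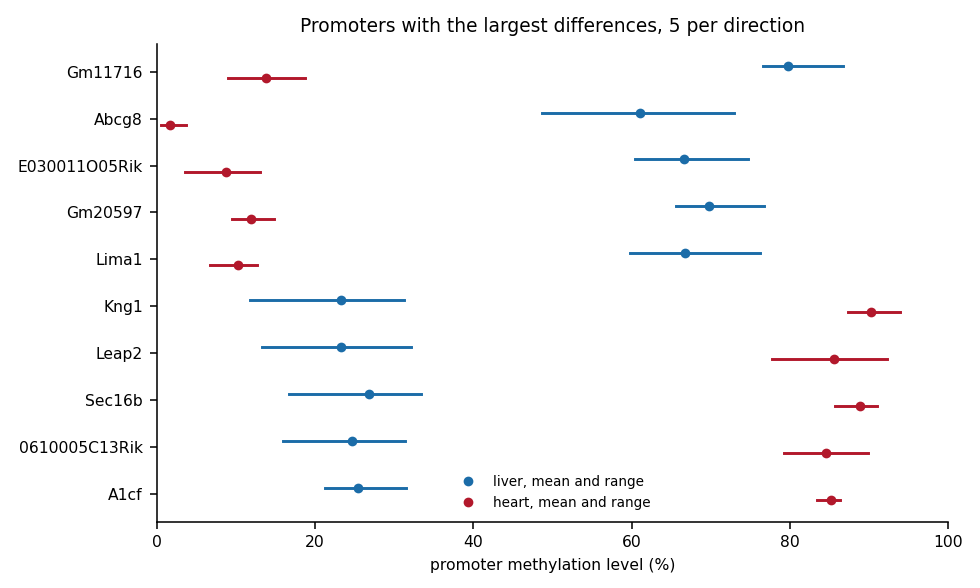
Promoter methylation level (x axis, percent) of the 5 promoters per direction with the largest differences and at least 3 tiles (y axis). Points are tissue means and lines the range from the lowest to the highest library (12 liver, 6 heart); the ranges do not overlap at any of the 10.

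The DNA around the DMTs held different short motifs. Windows of 300 bp centred on the tiles were searched on both strands for exact letters, without regard to binding, and the recognition letters of several factors were counted. The forkhead letters TGTTTAC of the FOXA factors were in 8.01% of windows around tiles higher in heart, in 2.81% around tiles higher in liver and in 3.40% of all windows. HNF4A letters, CAAAGTC, were in 7.93%, 4.44% and 4.25%, and those of C/EBP, TTGCNNAA, in 16.2%, 9.93% and 11.03%. The nuclear receptor letters AAGGTCA, those of the estrogen-related receptors (ERR) and others, were in 10.6%, 5.33% and 5.58%. Nuclear receptors stand in both the hepatocyte and the cardiac factor lists, as with Ppara and Esrrg. All of these letters were thus more common where liver was low.

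Windows around tiles higher in liver held other motifs more often. The MEF2 letters, CTA and TAG with any 4 bases between, were in 4.83% of these, in 3.18% around tiles higher in heart and in 3.39% of all, and in 6.95% around those higher in liver by 50 points or more. GATA letters, AGATAAG, were in 6.07%, 3.90% and 3.71%, and those of TEAD, CATTCC, in 18.9%, 14.9% and 15.1%. The NKX2-5 letters CACTTAA were in 3.36%, 2.83% and 2.86%. The MspI letters CCGG were in 78.5% of windows in both directions and in 78.1% of all, but in 84.6% around tiles higher in liver by 50 points or more and 79.4% around those higher in heart by as much. Around tiles with 1 or 2 CpGs they were in 74.7% of windows higher in liver and 76.0% of those higher in heart, against 70.4% of all such tiles. Among tiles with 1 or 2 CpGs, each factor named above had its higher share in the same direction. FOXA letters were in 8.32% around tiles higher in heart, 2.86% around tiles higher in liver and 3.78% around all such tiles. MEF2 letters were in 3.34%, 5.25% and 4.08%. NKX2-5 letters were in 3.02%, 3.51% and 3.39%, so the share around tiles higher in liver was close to that of all such tiles. Matches were counted as a description of these windows, and the letters of HNF4A and of the nuclear receptors can share bases where they adjoin.

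**Figure D5:**
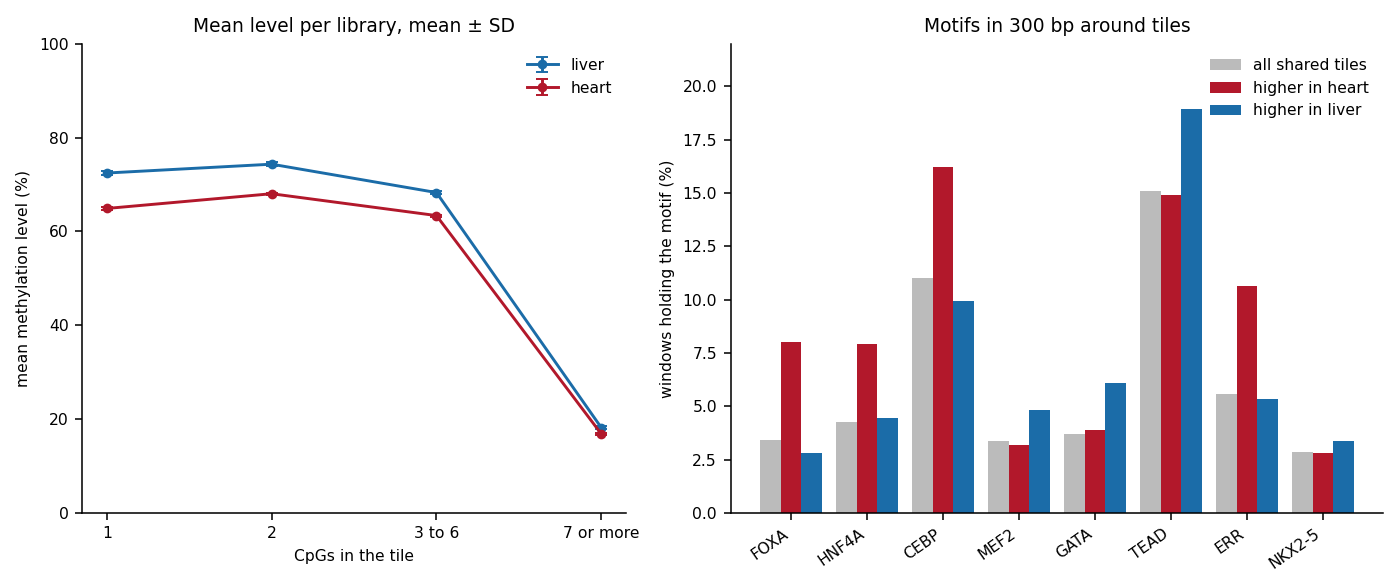
Left, mean level of tiles by number of CpGs (x axis) in liver and heart (y axis, percent; points are means over 12 and 6 libraries, bars the SD, mostly smaller than the points). Right, share of 300 bp windows holding each motif (y axis, percent) around all shared tiles and the DMTs of each direction: FOXA letters are in 8.01% of windows higher in heart, and MEF2 letters in 4.83% of windows higher in liver.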

How the data were processed

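Methylation was measured by enhanced RRBS in 24 libraries, of which 12 from liver and 6 from heart were compared and 6 from brain served as a reference. Libraries were prepared, sequenced and mapped by a service. The authors binned the calls into 100 bp tiles with methylKit, after Bismark per the labels, and kept tiles above a minimum coverage in every replicate. The deposited values are fractions from 0 to 1 per tile and library on mm10, multiplied here by 100. Depth is unknown, so no interval is given. Replicates were separate mice per the labels. Positions were checked against GRCm38: 99.9% of shared tiles held a CpG, against 55.8% after a shift of 100000 bp. Genes were 42647 curated RefSeq transcripts of 23827 autosomal genes. The main test was limma (version 3.58.1, R 4.3.3) per tile and per promoter, used in place of the count test of the study because the files hold levels. On 20000 simulated tiles for this comparison, 48 of 50 differences of 30 points and 99 of 100 of 40 points were called, with 0 false calls. Named per direction, outside chromosome 18, were the 5 longest runs and the 5 largest differences among tiles with 3 or more CpGs. The 5 largest promoter differences per direction, with 3 or more tiles, were also named outside chromosome 18. The 3 genes per list with the most DMTs were named on any autosome. Alternatives were other transformations, a rank-sum test, other thresholds, centring, other priors, subsets of tiles and leaving out each library. The tiles, lists and rules were chosen with earlier results of these data known. Some genes that the rules name are not reported here.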

Additional observations from a re-analysis of the deposited data

Results flagged for a closer look

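Among 31 sets of heart levels tested for a library far from the others (the heart mean over all tiles, and the tiles and promoters named above), 3 held one, where chance gives about 1 in 20. One heart library had a mean level of 60.47% over all shared tiles, while the next was at 59.94% and the lowest at 59.73%. All 6 stayed below every liver library, whose lowest mean was 65.0%. At the Trf tile the lowest heart library was at 91.7%, while the next was at 93.4% and the highest at 94.4%. At the Leprotl1 tile 1 heart library was at 6.7% and the other 5 were listed at 0. The causes were not tested.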

How the results depend on the processing

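No paired analysis was possible because the columns of levels carry no mouse number, although 6 mouse numbers occur in both liver and heart, 2 of them with opposite genders in the labels. Depth per tile is unknown. Leaving out each library in turn gave 82996 to 84281 DMTs, with 60903 to 62344 higher in liver and 21899 to 22366 higher in heart, and a mean difference between 5.49 and 5.66 points. For promoters it gave 577 to 592 calls, with 361 to 375 higher in liver and 214 to 221 higher in heart. Arcsine, logit, trend and robust prior, the exact rank-sum test, tiles in all 3 tables and the removal of invariant tiles each stayed within 1.5 times of every count of DMTs.

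Counts moved by more than that in these cases. A difference of 10 points gave 221797 DMTs, 181082 higher in liver and 40715 higher in heart, and 50 points gave 12479, 5425 and 7054. Tiles with 3 or more CpGs gave 32765, 23799 and 8966, of 372400 tested instead of 773114. Centring gave 40544 higher in liver. Centring with a difference of 50 points, chosen after seeing the data as was centring for the gene lists, gave 12045, 2438 and 9607. For promoters, a difference of 10 points gave 1762 calls, 1308 higher in liver and 454 higher in heart, promoters with at least 3 tiles gave 265, 179 and 86 of 14070 tested, and centring gave 231 higher in liver. The fewer calls with a larger difference or fewer tiles follow from the rule itself, and the centred counts from the removal of the shift in the mean. All 76 named tiles and promoters kept their direction and their call under each alternative run for them, while 9 counts of DMTs in the gene lists moved by more than 1.5 times with centring. The named ones were picked from these same data for large differences or many DMTs, so their kept calls are no independent check. The transformations, other priors, subsets of tiles and rank-sum test reused the same difference of means, so the direction could not change in them.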

Other observations

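Exact zeros were uneven between the directions. Of the 168 DMTs higher in liver by 70 points or more, 16 were listed at 0 in all 6 heart libraries, and of the 19 higher by 80 points or more, 8 were. Among the 61269 DMTs higher in liver in all, 96 were, or 0.157%. No DMT higher in heart was listed at 0 in all 12 liver libraries, where 12 zeros instead of 6 are required. DMTs higher in liver by 80 points or more were also missing from the brain table more often, 9 of 19 or 47.4%, than those higher by 25 points or more, 1.69%. The cause was not tested, and the depth at these tiles is unknown.

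Repeat-masked tiles made up 20.3% of all shared tiles, 2.99% of the DMTs higher in liver by 50 points or more and 10.4% of those higher in heart by 50 points or more. Tiles within 500 bp of a gene start averaged 9.28% in liver and 8.07% in heart, and 1.92% of them were DMTs higher in liver and 0.844% DMTs higher in heart, against 7.92% and 2.86% of all tiles.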
